A study of Mus musculus with 16 samples.

Results

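The osteoclast differentiation markers are 10 genes that are switched on or raised when a macrophage precursor becomes a bone-resorbing cell: Tnfrsf11a, Nfatc1, Oscar, Dcstamp, Ocstamp, Itgb3, Acp5, Ctsk, Atp6v0d2 and Car2. They were taken by name from a list of known markers, and all 10 were measured, each by 1 probe set, among 18820 genes. They were read in RAW264.7 cells, a virus-transformed mouse macrophage-like line that can form osteoclasts when it is given RANK ligand. The labels name no RANK ligand in any group. Total RNA was taken after 24 h with lipopolysaccharide (LPS, 1 µg/ml) and docosahexaenoyl serotonin (DHA5HT, 1 µM) together, called LPS+DHA5HT, with LPS and vehicle, with DHA5HT alone, or with ethanol vehicle (0.1% by volume) as control. Each of these 4 groups had 4 arrays. LPS is a component of the bacterial cell wall that activates macrophages, and DHA5HT joins serotonin to the n-3 fatty acid docosahexaenoic acid, and its effect on LPS-treated macrophages was the question of the study.

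Osteoclasts form when RANK ligand binds its receptor RANK on a precursor of the monocyte and macrophage lineage that also receives macrophage colony-stimulating factor. The receptor signals through NF-κB and AP-1 and, together with co-receptors that carry ITAM motifs, raises calcium and the transcription factor NFATc1, which drives the genes for fusion, adhesion, acid secretion and matrix digestion. Toll-like receptor ligands such as LPS are known to divert early precursors away from this path and to favour it in cells already committed to it.

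All values are log2 intensities made by RMA. Where no SE is named, an error is the SD over 4 arrays, and a change is the difference between 2 group means on that scale. A gene was called changed when its adjusted p was under 0.05 in limma with Benjamini-Hochberg adjustment over all 18820 genes. Whether arrays of one group stem from separate cultures is not stated in the labels, so p-values here cover the spread between these samples alone, and the precision is limited by the number of arrays. The title of LPS+DHA5HT array 1 names both agents while its treatment label gives only DHA5HT, and its title was used to place it. Over the 136 genes whose LPS change was 4-fold or more, on a scale where the LPS mean is 100% and the control mean 0%, that array lay at 83.8%. The remaining LPS+DHA5HT arrays lay at 78.5% to 90.8%, and the DHA5HT arrays at −4.41% to −1.41%. LPS+DHA5HT array 4 stood apart on the second principal component (4.72% of the variance) at −22.4, with the other 15 arrays between −9.36 and 10.0. The mean of 8 macrophage markers was 11.56 to 11.64 in LPS+DHA5HT arrays, 11.56 to 11.69 in LPS arrays, 10.88 to 10.997 in DHA5HT arrays and 10.88 to 11.05 in control arrays. In bulk RNA, fewer cells of a kind and less RNA per cell cannot be told apart.

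The markers fell into those with a signal and those without a clear one. Lymphocyte and epithelial markers, which these cells should lack, had group means of 2.70 to 4.67 over 13 genes, with a median of 3.54. Tnfrsf11a, Nfatc1, Dcstamp and Car2 lay above that range in every group. Oscar, Ocstamp, Itgb3, Acp5, Ctsk and Atp6v0d2 lay within or below it in every group, and probe levels do not rank genes against each other. Osteoblast markers, the other bone cell type, averaged 3.98 to 4.29 per array over 6 measured genes, and dendritic cell markers 3.95 to 4.30 over 4. Single genes of these lists had group means above 4.67. Col1a1 stood at 5.28 to 5.36, Ccr7 at 4.99 to 5.12, and Bglap at up to 4.98 (in DHA5HT arrays). A level just above that range thus does not by itself show that a gene was expressed.

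**Figure D1:**
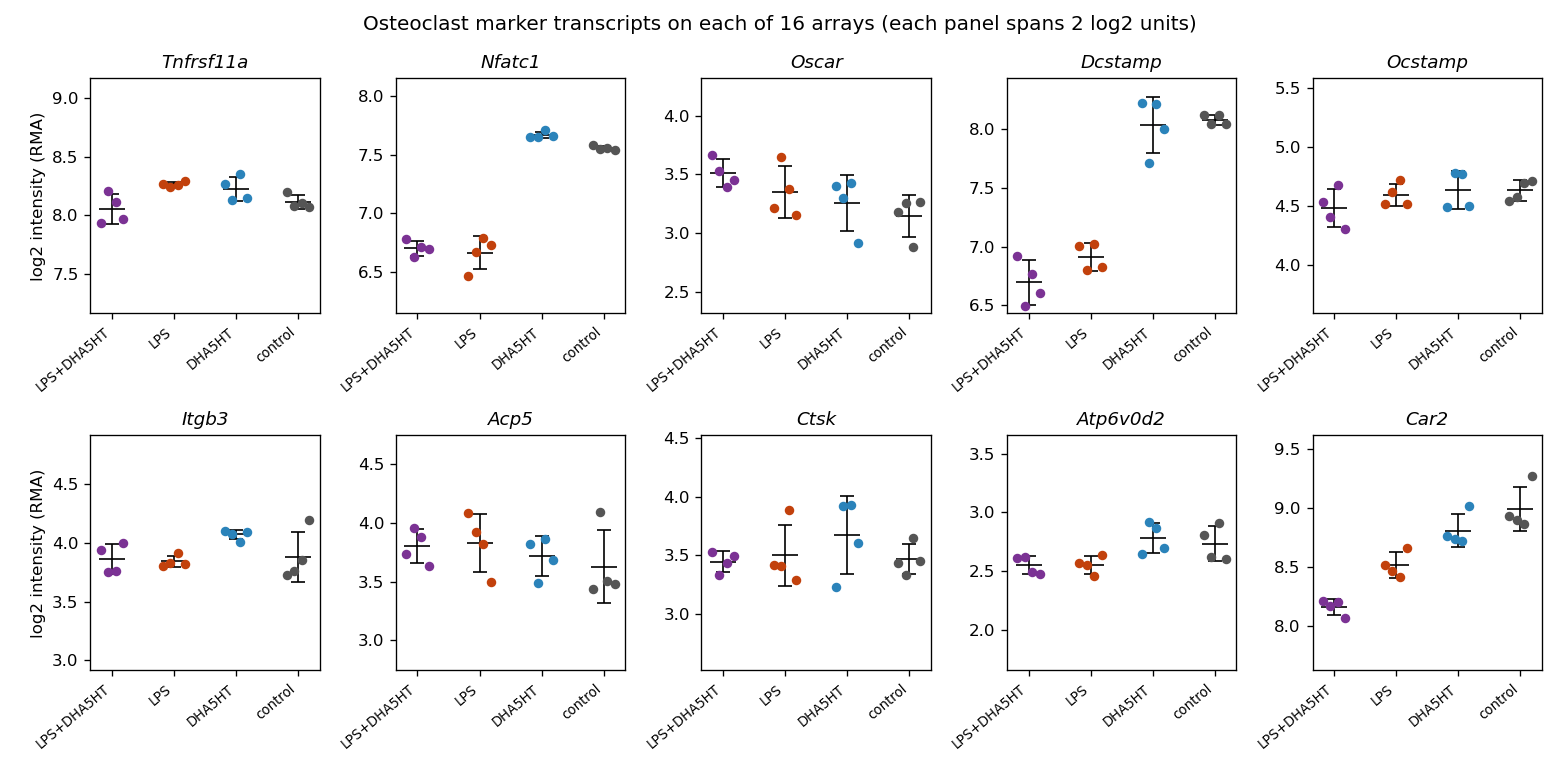
Log2 intensity of each of the 10 markers in every array (points) with the group means (horizontal ticks) and SD (vertical bars). Groups are LPS+DHA5HT, LPS, DHA5HT and control from left to right in each panel. The LPS+DHA5HT and LPS arrays of Nfatc1 (6.47 to 6.80) and Dcstamp (6.49 to 7.02) lie below all DHA5HT and control arrays (at least 7.54 and 7.72).

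Tnfrsf11a encodes RANK, the receptor for RANK ligand. Its log2 intensity was 7.93, 8.21, 8.12 and 7.97 in LPS+DHA5HT arrays and 8.27, 8.24, 8.26 and 8.29 in LPS arrays. In DHA5HT arrays it was 8.27, 8.13, 8.35 and 8.15, and in control arrays 8.20, 8.08, 8.10 and 8.07. The LPS arrays all lay above both the LPS+DHA5HT and the control arrays, by narrow gaps, and the DHA5HT arrays overlapped every other group.

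Nfatc1 encodes the transcription factor that acts as the master regulator of osteoclast formation. Its values were 6.78, 6.63, 6.71 and 6.70 in LPS+DHA5HT arrays and 6.47, 6.67, 6.80 and 6.73 in LPS arrays. They were 7.65, 7.65, 7.71 and 7.66 in DHA5HT arrays and 7.59, 7.55, 7.56 and 7.54 in control arrays. The groups with LPS lay far below those without it and overlapped each other. The DHA5HT arrays lay above the control arrays without overlap, but this difference of 0.11 was not called.

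Oscar, Ctsk and Acp5 are known targets of NFATc1, so the windows from 250 bases before to 50 bases after their annotated starts are shown, from RefSeq on GRCm38.p6, 5′ to 3′ on the gene's strand. Such a window was given for 4 of the 10 markers, these and Tnfrsf11a, and the first of 3 is shown for Acp5. Capitals mark GGAAA, the core that NFAT proteins bind, on either strand (TTTCC is its reverse complement). The Oscar window lies at chr7:3616108-3616407 on the minus strand, the Ctsk window at chr3:95498960-95499259 on the plus strand and the Acp5 window at chr9:22135697-22135996 on the minus strand.
Oscar: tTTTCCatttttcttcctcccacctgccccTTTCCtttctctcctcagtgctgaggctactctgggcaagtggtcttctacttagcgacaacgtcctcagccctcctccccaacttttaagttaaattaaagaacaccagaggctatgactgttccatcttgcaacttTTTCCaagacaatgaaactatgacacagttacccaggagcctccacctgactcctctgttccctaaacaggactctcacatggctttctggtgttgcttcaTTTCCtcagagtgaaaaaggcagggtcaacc
Ctsk: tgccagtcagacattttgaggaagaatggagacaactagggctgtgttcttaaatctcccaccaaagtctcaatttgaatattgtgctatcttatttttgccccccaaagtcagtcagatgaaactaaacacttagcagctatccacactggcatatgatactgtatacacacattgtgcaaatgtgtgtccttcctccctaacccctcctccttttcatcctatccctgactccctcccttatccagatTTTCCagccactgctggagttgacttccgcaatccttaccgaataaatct
Acp5: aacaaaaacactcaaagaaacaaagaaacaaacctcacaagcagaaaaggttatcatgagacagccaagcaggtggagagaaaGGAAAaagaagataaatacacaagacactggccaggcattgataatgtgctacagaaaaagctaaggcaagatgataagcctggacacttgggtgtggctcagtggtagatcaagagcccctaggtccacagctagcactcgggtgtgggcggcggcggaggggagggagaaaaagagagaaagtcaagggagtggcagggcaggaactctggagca
The Oscar window held 4 such cores and the Ctsk and shown Acp5 windows 1 each, while the Tnfrsf11a window held 0. The Acp5 windows not shown held 1 and 2. A core was found in 61.3% of 32851 RefSeq windows of this length, so its presence is common. The AP-1 motif TGANTCA, searched on both strands, was found in 7.81% of the windows and in no window of these 4 genes. A match is a description of letters and not a binding site.

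Oscar encodes a co-receptor that signals through an ITAM adaptor and supports the rise of NFATc1. Its intensity was 3.67, 3.53, 3.39 and 3.46 in LPS+DHA5HT arrays, 3.22, 3.65, 3.37 and 3.16 in LPS arrays, 3.40, 3.30, 3.43 and 2.91 in DHA5HT arrays, and 3.18, 3.26, 2.88 and 3.26 in control arrays. Every group mean lay below 3.54, the median of the genes that these cells should lack, and the groups overlapped, apart from LPS+DHA5HT arrays lying above control arrays, a pair that was not compared.

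Dcstamp and Ocstamp encode membrane proteins needed for precursors to fuse into multinucleated cells. Dcstamp stood at 6.92, 6.49, 6.77 and 6.61 in LPS+DHA5HT arrays and at 7.01, 6.80, 7.02 and 6.82 in LPS arrays. It stood at 8.22, 7.72, 8.22 and 8.00 in DHA5HT arrays and at 8.12, 8.04, 8.12 and 8.04 in control arrays. The arrays with LPS were all lower than those without it, and within each level of LPS the groups overlapped. Ocstamp stayed between 4.30 and 4.78 in all 16 arrays, with group means of 4.48 ± 0.16 in LPS+DHA5HT, 4.59 ± 0.10 in LPS, 4.63 ± 0.16 in DHA5HT and 4.63 ± 0.09 in control arrays. The groups of Ocstamp overlapped throughout, so the 2 fusion genes did not follow one pattern.

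Itgb3 encodes the β3 chain of the αvβ3 integrin with which osteoclasts hold on to bone. Its values were 3.93, 3.75, 3.76 and 4.00 in LPS+DHA5HT arrays, 3.80, 3.83, 3.91 and 3.82 in LPS arrays, 4.10, 4.08, 4.01 and 4.09 in DHA5HT arrays, and 3.73, 3.76, 3.85 and 4.19 in control arrays. The DHA5HT arrays lay above both groups with LPS, by at most 0.10 at the nearest arrays, while control array 4 was the highest of all 16.

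Acp5 encodes tartrate-resistant acid phosphatase, the classical stain of osteoclasts, and Ctsk encodes cathepsin K, the protease that digests bone collagen. Acp5 averaged 3.80 ± 0.15 in LPS+DHA5HT, 3.83 ± 0.25 in LPS, 3.72 ± 0.17 in DHA5HT and 3.63 ± 0.31 in control arrays. Its 4 control arrays read 3.44, 4.09, 3.51 and 3.48, so array 2 was higher than every other array of the study while the remaining 3 were among the lowest. Ctsk averaged 3.45 ± 0.09 in LPS+DHA5HT, 3.50 ± 0.26 in LPS, 3.67 ± 0.33 in DHA5HT and 3.47 ± 0.13 in control arrays, and all groups of both genes overlapped.

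Atp6v0d2 encodes a subunit of the proton pump that acidifies the resorption pit and is also needed for fusion. It read 2.61, 2.62, 2.50 and 2.47 in LPS+DHA5HT arrays, 2.57, 2.55, 2.46 and 2.63 in LPS arrays, 2.65, 2.92, 2.87 and 2.70 in DHA5HT arrays, and 2.81, 2.62, 2.91 and 2.61 in control arrays. All of these readings lay below 3.54, and only the DHA5HT arrays stood above both groups with LPS.

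Car2 encodes carbonic anhydrase II, which supplies the protons for acid secretion. Its values were 8.21, 8.17, 8.20 and 8.06 in LPS+DHA5HT arrays and 8.52, 8.47, 8.42 and 8.67 in LPS arrays. They were 8.77, 8.74, 8.72 and 9.02 in DHA5HT arrays and 8.93, 8.90, 8.86 and 9.27 in control arrays. The LPS+DHA5HT arrays were lowest, the LPS arrays came next, and both lay below all DHA5HT and control arrays, which overlapped each other.

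LPS against control asks how an inflammatory stimulus alters these genes in cells that were given no RANK ligand. LPS lowered 3 of the 10 markers and raised 0: the transcription factor Nfatc1, the fusion gene Dcstamp and the proton-supplying enzyme Car2. Dcstamp was 2.24-fold lower, at 6.91 ± 0.12 in LPS arrays and 8.08 ± 0.05 in control arrays, a log2 change of −1.17 (SE 0.11, limma adjusted p = 1.63e-07). Nfatc1 was 1.85-fold lower, at 6.67 ± 0.14 in LPS arrays and 7.56 ± 0.02 in control arrays, a log2 change of −0.89 (SE 0.06, limma adjusted p = 7.44e-09). Car2 was 1.39-fold lower, at 8.52 ± 0.11 in LPS arrays and 8.99 ± 0.19 in control arrays, a log2 change of −0.48 (SE 0.09, limma adjusted p = 0.000497). Each of these falls was larger than the spread between arrays, with all 4 LPS arrays below all 4 control arrays. The mean of the 8 macrophage markers was higher in the same LPS arrays, as given above, and its part in these falls was not tested. Most of that difference came from Adgre1 (mean 10.87 in LPS arrays and 6.93 in control arrays) and Fcgr1 (10.25 and 9.18), while Cd68, Lyz2, Csf1r and Mpeg1 had slightly lower means in LPS arrays.

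LPS changed 28.4% of all 18820 genes and lowered 15.8%, so 3 of 10 markers is a share near that of genes at large. The 3 are among the 4 markers that lay above the range of genes that these cells should lack. The other 6 had no clear signal, and the share of all genes takes in dim genes as well. With only genes brighter than the median gene tested, 5262 were called, beside 5346 with all genes tested. At an unadjusted p under 0.05 the numbers were 5 of 10 markers and 35.9% of all genes. The median change of the markers was −0.04, beside 0.00 for all genes. Groups did not overlap for 4 of the 10 markers, the 3 named and Tnfrsf11a, and for 29.8% of all genes. Tnfrsf11a had a log2 change of 0.15 (SE 0.07, limma adjusted p = 0.109), with a 95% interval of 0.01 to 0.30. It passed the threshold only when just the brighter genes were tested (adjusted p = 0.0495 in limma) or the arrays were quantile normalized again (0.19, adjusted p = 0.0475 in limma). Acp5, with a log2 change of 0.20 (limma adjusted p = 0.347), passed only without control array 2 (0.36, limma adjusted p = 0.0372). The others had changes of −0.18 for Atp6v0d2, −0.04 for Ocstamp and Itgb3, 0.03 for Ctsk and 0.20 for Oscar, with limma adjusted p-values between 0.105 and 0.905.

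**Figure D2:**
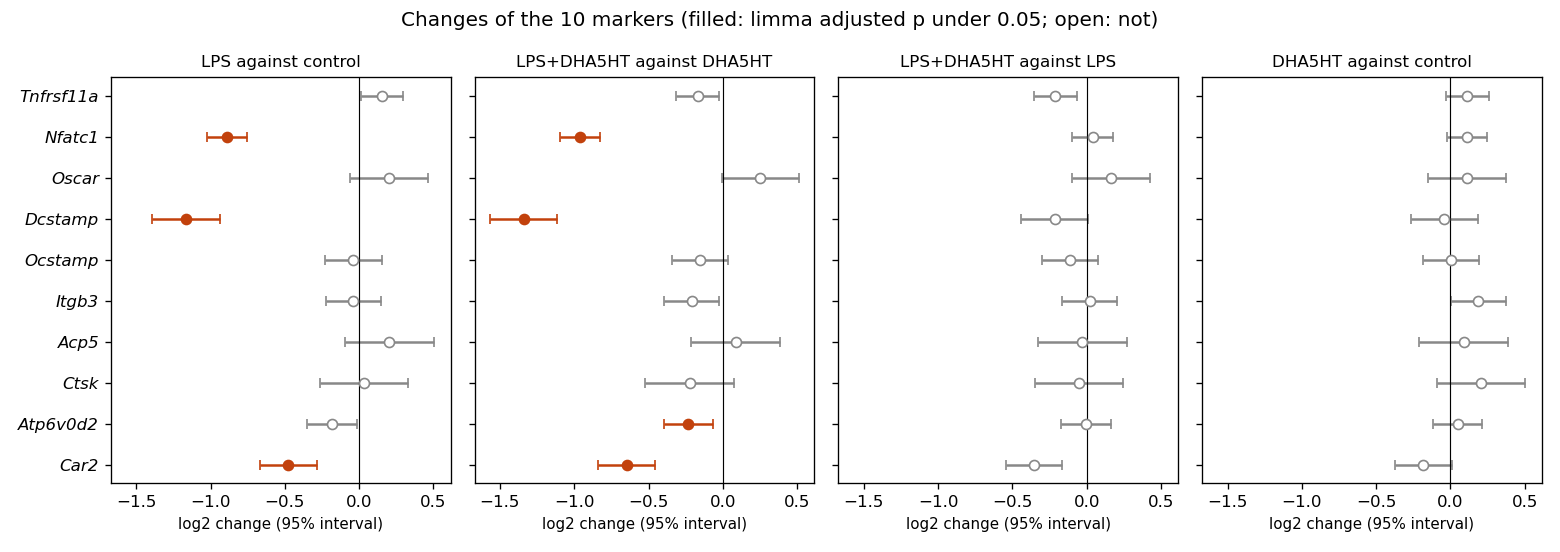
Log2 change of each marker (x axis, points) with its 95% interval (bars) in 4 comparisons; filled points have a limma adjusted p under 0.05. Nfatc1, Dcstamp and Car2 are filled in both comparisons of cells with LPS against cells without it, Atp6v0d2 in the one made in the presence of DHA5HT, and no point is filled in the comparisons of DHA5HT with no DHA5HT.

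The fall with LPS was also measured in the presence of DHA5HT. In LPS+DHA5HT against DHA5HT, 4 of 10 markers were lower and 0 higher, beside 28.1% of all genes changed and 15.7% lower. At an unadjusted p under 0.05 there were 6 of 10 markers, beside 36% of all genes. Dcstamp was 2.53-fold lower (log2 change −1.34, SE 0.11, limma adjusted p = 3.43e-08), at 6.70 ± 0.19 in LPS+DHA5HT arrays and 8.04 ± 0.24 in DHA5HT arrays. Nfatc1 was 1.95-fold lower (−0.96, SE 0.06, limma adjusted p = 3.34e-09), at 6.71 ± 0.06 in LPS+DHA5HT arrays and 7.67 ± 0.03 in DHA5HT arrays. Car2 was 1.57-fold lower (−0.65, SE 0.09, limma adjusted p = 2.39e-05), at 8.16 ± 0.07 in LPS+DHA5HT arrays and 8.81 ± 0.14 in DHA5HT arrays. These 3 genes thus fell with LPS both without and with DHA5HT. The 2 comparisons use different arrays.

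Atp6v0d2 passed the threshold only in the second of them, at 2.55 ± 0.08 in LPS+DHA5HT arrays and 2.78 ± 0.13 in DHA5HT arrays (log2 change −0.23, SE 0.08, limma adjusted p = 0.0360). Both means were below 3.54, the median of the genes that these cells should lack. The call was lost without LPS+DHA5HT array 3 or 4 or DHA5HT array 2 or 3, when the change was −0.21 to −0.19 (limma adjusted p of 0.0876 to 0.119). It was also lost with all probe sets tested, with array weights, with the compared arrays alone and without both LPS+DHA5HT arrays 1 and 4. The limma adjusted p was 0.0509 to 0.137 in these. At the 0.05 threshold the call was kept in 9 of 17 alternatives. It was not made at a threshold of 0.01, and the filter on dim genes left Atp6v0d2 out. Itgb3 did not overlap between these groups either, which made 5 of 10 markers beside 28.5% of all genes, but its change of −0.21 did not pass (limma adjusted p = 0.0880). Tnfrsf11a had a change of −0.17 in this comparison (limma adjusted p = 0.0750). Without LPS+DHA5HT array 2 it was −0.22 and passed (limma adjusted p = 0.0247), and without DHA5HT array 1 Ctsk did (−0.37, limma adjusted p = 0.0345).

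LPS+DHA5HT against LPS addresses what DHA5HT does to LPS-treated cells. None of the 10 markers was called, with 2 of 10 at an unadjusted p under 0.05, while 1.79% of all genes were called and 2570 of 18820 had such an unadjusted p. Those 2 were Car2 and Tnfrsf11a, and they were also the 2 whose groups did not overlap, beside 7.89% of all genes. Car2 was 1.28-fold lower, at 8.16 ± 0.07 in LPS+DHA5HT arrays and 8.52 ± 0.11 in LPS arrays (log2 change −0.35, SE 0.09, limma adjusted p = 0.0567). Across genes, same-numbered arrays of these groups deviated together. Car2 itself did not, as array 4 was the highest LPS array (8.67) and the lowest LPS+DHA5HT array (8.06). The replicate number as a block in limma was fitted over the arrays of all groups, so it does not isolate pairing between LPS+DHA5HT and LPS. With this block the limma adjusted p of Car2 was 0.0236 and 1 of 10 markers was called. The count over all genes was then 647 in place of 337. Car2 was thus close to the threshold and its call depends on the model.

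Tnfrsf11a stood at 8.06 ± 0.13 in LPS+DHA5HT arrays and 8.27 ± 0.02 in LPS arrays, a log2 change of −0.21 (SE 0.07, limma adjusted p = 0.144). Without LPS+DHA5HT arrays 1 and 4, the one with conflicting labels and the one that stood apart, the change of Tnfrsf11a was −0.11 (limma adjusted p = 0.723) and that of Car2 was −0.33 (limma adjusted p = 0.335). Without array 1 alone they were −0.17 for Tnfrsf11a (limma adjusted p = 0.305) and −0.37 for Car2 (limma adjusted p = 0.0895). Nfatc1 differed by 0.04 (95% interval −0.10 to 0.17) and Dcstamp by −0.22 (95% interval −0.44 to 0.01, limma adjusted p = 0.398). Dcstamp was lower in the LPS+DHA5HT array of all 4 same-numbered pairs, and with the replicate block its change had an SE of 0.07 (limma adjusted p = 0.119), so it did not pass either way. Changes of the other 6 markers were between −0.11 for Ocstamp and 0.16 for Oscar, with limma adjusted p-values of at least 0.627.

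DHA5HT against control shows what the compound does without LPS. None of the 10 markers was called, with 1 at an unadjusted p under 0.05, beside 0.6% of all genes called and 9.85% with such an unadjusted p. That one was Itgb3, at 4.07 ± 0.04 in DHA5HT arrays and 3.88 ± 0.21 in control arrays (log2 change 0.19, SE 0.09, limma adjusted p = 0.4999), and its groups overlapped. Groups did not overlap for 1 of 10 markers, beside 5.89% of all genes. This was Nfatc1, at 7.67 ± 0.03 in DHA5HT arrays and 7.56 ± 0.02 in control arrays (log2 change 0.11, 95% interval −0.02 to 0.25, limma adjusted p = 0.618). Same-numbered arrays deviated together here too, and with the replicate block 179 genes in place of 113 were called, again with 0 of the markers. Car2 differed by −0.18 (95% interval −0.37 to 0.01, limma adjusted p = 0.529) and Dcstamp by −0.04 (limma adjusted p = 0.947).

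The interaction, the DHA5HT effect with LPS minus that without it, was called for none of the 10 markers in limma and for 0.329% of all genes, with 1 of 10 markers and 7.65% of all genes at an unadjusted p under 0.05. That marker was Tnfrsf11a, with −0.32 (SE 0.10, limma adjusted p = 0.283), which is a change of −0.21 with LPS minus one of 0.11 without it. Without LPS+DHA5HT arrays 1 and 4 it was −0.22 (limma adjusted p = 0.767). For Dcstamp the interaction was −0.17 and for Car2 also −0.17, with 95% intervals of −0.49 to 0.15 and −0.44 to 0.10, and for Nfatc1 it was −0.07 (95% interval −0.26 to 0.12).

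Over all 4 groups the markers with the widest range of group means were Dcstamp (1.38), Nfatc1 (1.00) and Car2 (0.83). From the lowest mean up, the order for Dcstamp was LPS+DHA5HT, LPS, DHA5HT and control, and neighbours overlapped except at the step between LPS and DHA5HT. For Nfatc1 the order was LPS, LPS+DHA5HT, control and DHA5HT, with overlap between LPS and LPS+DHA5HT only. For Car2 the order was LPS+DHA5HT, LPS, DHA5HT and control, with overlap between DHA5HT and control only.

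For these 3 markers the genes with the most similar pattern were sought by the root mean square difference over the 16 arrays after centring each gene on its own mean. Dcstamp was followed most closely by D17H6S56E-5 (0.138), Mef2c (0.160) and Pif1 (0.160), where the median gene had 0.660. Nfatc1 was followed by Cep112 (0.0986), Stk17b (0.102) and Gabpb2 (0.107), with 0.488 for the median gene. Car2 was followed by G2e3 (0.108), Cdkn1b (0.112) and Kdm3a (0.116), with 0.362 for the median gene. The 16 arrays fall into groups with and without LPS, so a gene that fell with LPS by a like amount comes out as similar.

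The genes around the markers in the pathway were read from 7 lists. Of their 93 measured genes, 27 rose and 24 fell with LPS against control, which is 54.8% beside 28.4% of all genes, with a median change of 0.02 beside 0.00. The share of 28.4% takes in dim genes, and calls depend on brightness. Testing only genes brighter than the median gene gave 5262 calls, beside 5346 with all genes tested. Genes of like brightness were not compared with the lists, so no excess is read from the shares of 54.8% and 28.4%. The lists were written for this pathway in macrophages with earlier results of these data known. Of the 51 calls, 9 were lost when 1 array or another was left out, all for changes under 0.42 in size: Atp6v0d1, Clcn7, Creb1, Ctss, Fcer1g, Il34, Inpp5d, Map3k7 and Slc4a2.

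Among 6 ligand, decoy and growth factor receptor genes, 2 rose and 1 fell. Csf1, the macrophage growth factor that precursors need, rose 4.36-fold, with 8.00 ± 0.22 in LPS arrays and 5.87 ± 0.23 in control arrays (log2 change 2.12, limma adjusted p = 1.06e-08). Csf1r, its receptor, fell by 0.20 (limma adjusted p = 0.00298). Il34, another ligand of that receptor, rose by 0.31 (limma adjusted p = 0.0197) at means within the range of genes that these cells should lack, and it did not pass when LPS array 1, LPS array 3 or control array 3 was left out (0.24 to 0.29, limma adjusted p of 0.0533 to 0.0804). Tnfsf11, which encodes RANK ligand, stood at 5.22 ± 0.05 in LPS arrays and 5.39 ± 0.09 in control arrays (limma adjusted p = 0.0839). The osteoblast gene Col1a1 averaged 5.33 and 5.30 in these groups, so the level of Tnfsf11 does not show that it was expressed. Tnfrsf11b, the decoy receptor, differed by 0.04 (limma adjusted p = 0.756). Its means of 3.99 in LPS and 3.95 in control arrays lay within the range of genes that these cells should lack. Tnfsf11 and Tnfrsf11b are given for their roles and were named after their values were seen.

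Of 25 RANK signalling genes, 7 rose and 6 fell with LPS, and 12 did not pass. One of the 7, Mitf, had a change of 0.34 that was 0.15 and did not pass when its probe sets were averaged (limma adjusted p = 0.316). Prdm1, a repressor that silences brakes on osteoclast formation, rose by 2.22, with 7.11 ± 0.21 in LPS arrays and 4.89 ± 0.21 in control arrays (limma adjusted p = 4.11e-09). The AP-1 gene Junb rose by 1.40 (limma adjusted p = 9.73e-10) and the NF-κB gene Nfkb2 by 0.77 (limma adjusted p = 8.00e-07). Of 10 ITAM co-stimulation genes, 4 rose and 5 fell. Trem2, a receptor that pairs with the ITAM adaptor Tyrobp, fell by 1.35, with 9.57 ± 0.07 in LPS arrays and 10.92 ± 0.10 in control arrays (limma adjusted p = 1.30e-08), and Vav3, an exchange factor that osteoclasts use to arrange their cytoskeleton, fell by 1.16 (limma adjusted p = 3.37e-10). Syk, the kinase that ITAM receptors recruit, rose by 1.53 (limma adjusted p = 5.47e-09). Genes of both lists thus moved both ways.

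Of 11 genes that restrain osteoclast formation, 3 rose and 4 fell with LPS. Bcl6, a repressor of osteoclast genes, fell by 1.83, with 6.95 ± 0.16 in LPS arrays and 8.78 ± 0.06 in control arrays (limma adjusted p = 1.18e-12). Cyld, a deubiquitinase that limits RANK signalling, fell by 0.50 (limma adjusted p = 6.32e-07), and Tnfaip3, which limits NF-κB, rose by 1.40 (limma adjusted p = 2.06e-08). Among 11 cell fusion genes, 3 rose and 1 fell. Cd47 and Cd44, surface proteins of fusing macrophages, rose by 0.46 and 0.35 (limma adjusted p = 1.25e-05 and 3.74e-05), and P2rx7, an ATP-gated channel, fell by 0.45 (limma adjusted p = 0.000240). Dcstamp thus fell while the other called fusion genes changed by less than 0.5 on the log2 scale.

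Of 20 acid secretion genes, 5 rose and 4 fell with LPS. Snx10, a sorting protein needed for osteoclast acid secretion, rose by 0.97 (limma adjusted p = 2.65e-09) and the proton pump subunit Atp6v1e1 by 0.47 (limma adjusted p = 3.58e-06), while Plekhm1, which moves lysosomes to the resorbing surface, fell by 0.60 (limma adjusted p = 0.000135). Car2 was the marker of this role that fell. Of 10 adhesion and matrix degradation genes, 3 rose and 3 fell. Mmp9, a gelatinase of osteoclasts and of activated macrophages, rose 6.05-fold, with 10.48 ± 0.28 in LPS arrays and 7.88 ± 0.23 in control arrays (log2 change 2.60, limma adjusted p = 1.12e-09). Gsn, which encodes the actin-severing protein gelsolin, fell by 1.06 (limma adjusted p = 1.35e-09), and Ctsl, a lysosomal protease, rose by 0.54 (limma adjusted p = 9.46e-06).

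**Figure D3:**
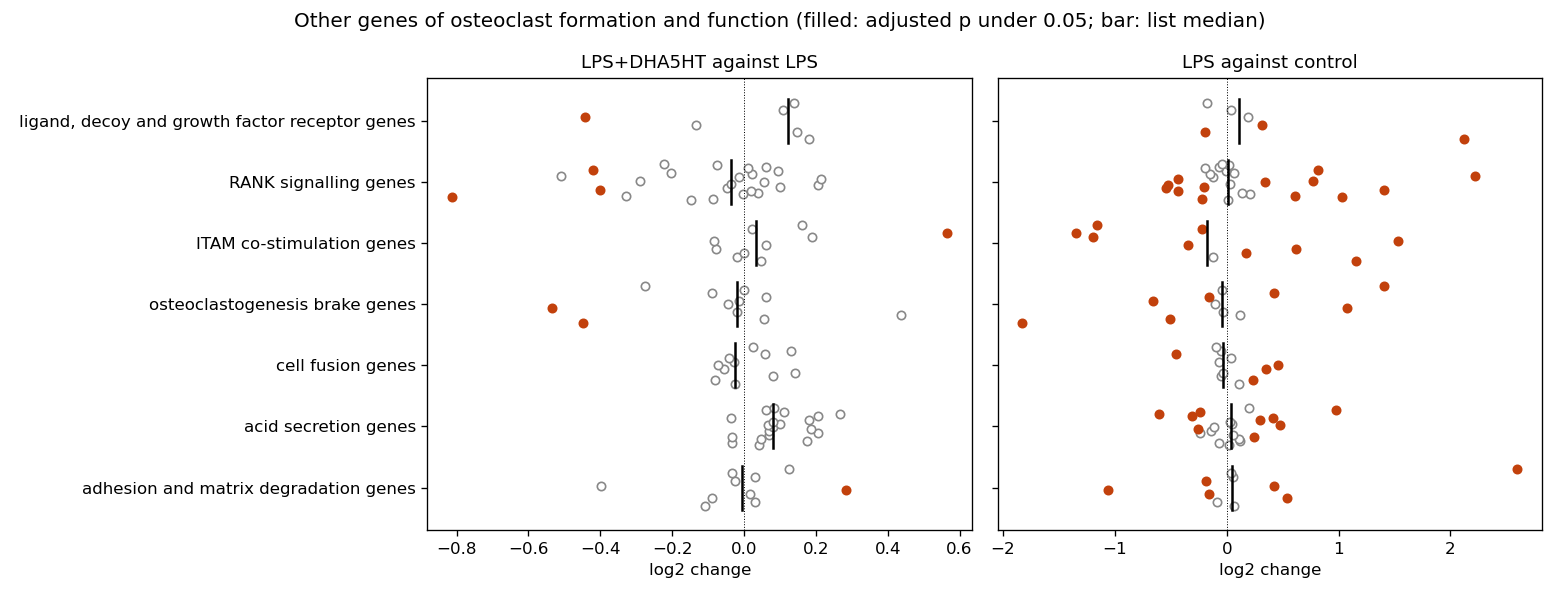
Log2 change of every measured gene in the 7 pathway lists (points, 1 row per list) in LPS against control and in LPS+DHA5HT against LPS; filled points have a limma adjusted p under 0.05. With LPS, 27 genes are filled on the higher side and 24 on the lower, and with DHA5HT added to LPS, 2 and 6.

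In LPS+DHA5HT against LPS, 2 of the 93 genes rose and 6 fell, 8.60% beside 1.79% of all genes. The share of all genes takes in dim genes here too. With only genes brighter than the median gene tested, 557 genes were called in place of 337. No excess is read from these shares, as genes of like brightness were not compared. Trem2 rose by 0.57, with 10.14 ± 0.26 in LPS+DHA5HT arrays and 9.57 ± 0.07 in LPS arrays (limma adjusted p = 0.00823), and Bcl6 fell by 0.45, with 6.50 ± 0.02 in LPS+DHA5HT arrays and 6.95 ± 0.16 in LPS arrays (limma adjusted p = 0.00186). Fos, the AP-1 gene needed for osteoclast formation, fell by 0.81, with 6.07 ± 0.28 in LPS+DHA5HT arrays and 6.88 ± 0.07 in LPS arrays (limma adjusted p = 0.00580). These 3 calls held when any 1 array was left out. Without both LPS+DHA5HT arrays 1 and 4 the calls of Fos (−0.69, limma adjusted p = 0.100) and Trem2 (0.44, limma adjusted p = 0.0522) were lost, and that of Trem2 was also lost with the compared arrays alone (limma adjusted p = 0.0700).

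The remaining 5 calls lay near the threshold. All 5 were lost with all probe sets tested (limma adjusted p of 0.0691 to 0.102) and without both LPS+DHA5HT arrays 1 and 4 (limma adjusted p of 0.158 to 0.372), and each was lost without some single arrays. Junb fell by 0.40 (limma adjusted p = 0.0262), a call lost without LPS+DHA5HT array 1 or 4 or LPS array 2 or 4 (−0.38 to −0.36, limma adjusted p of 0.0721 to 0.0885). Lgr4, a receptor that also binds RANK ligand, fell by 0.44 (limma adjusted p = 0.0368), lost without LPS+DHA5HT array 1 or 4 or LPS array 1, 3 or 4 (−0.46 to −0.34, limma adjusted p of 0.0708 to 0.113). Src, the kinase needed for the ruffled border, fell by 0.42 (limma adjusted p = 0.0277) and was named after its values were seen. It was lost without any of 6 arrays, all but LPS+DHA5HT array 3 and LPS array 1 (−0.43 to −0.37, limma adjusted p of 0.0537 to 0.0938). Id3, an inhibitor of transcription factors, fell by 0.54 (limma adjusted p = 0.0380), lost without any array but LPS array 3 (−0.57 to −0.50, limma adjusted p of 0.0630 to 0.105). Gsn rose by 0.28 (limma adjusted p = 0.0381), lost without any array but LPS+DHA5HT array 3 (0.23 to 0.31, limma adjusted p of 0.0594 to 0.116).

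In limma, 0 of 11 fusion genes and 0 of 20 acid secretion genes were called in that comparison, with 0 and 5 at an unadjusted p under 0.05. Those with the smallest p were Cd200r1 with 0.14 and Adam8 with −0.08 among the fusion genes (limma adjusted p = 0.429 and 0.570), and Ostm1 with 0.21 and Atp6v1h with 0.18 among the acid secretion genes (limma adjusted p = 0.124 and 0.207). Cd200r1 averaged 2.72 in LPS+DHA5HT arrays and 2.58 in LPS arrays, below 3.54, the median of the genes that these cells should lack. With the replicate block Ostm1 passed (adjusted p = 0.0472 in limma). Itgav, which encodes the αv chain that pairs with the product of Itgb3, had a change of −0.40 (limma adjusted p = 0.0775), and with the replicate block it passed (adjusted p = 0.0235 in limma). The LPS arrays are shared with LPS against control, so the 2 sets of changes are not independent. In DHA5HT against control, 1 of the 93 genes rose and 1 fell, 2.15% beside 0.6% of all genes. With only genes brighter than the median gene tested, 154 genes were called in place of 113, so no excess is read here either. Tnfaip3 fell by 0.65, with 6.04 ± 0.23 in DHA5HT arrays and 6.69 ± 0.06 in control arrays (limma adjusted p = 0.00513). Itgb5, an integrin chain, rose by 0.56 (limma adjusted p = 0.0428), lost without any array but DHA5HT array 4 and control array 3 (0.43 to 0.58, limma adjusted p of 0.0828 to 0.139). The Itgb5 call was also lost with centring, all probe sets, array weights or the compared arrays alone (limma adjusted p of 0.0515 to 0.187). Both were named after their values were seen. The interaction was called for 0 of the 93 genes in limma, with 13 at an unadjusted p under 0.05, beside 7.65% of all genes.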

How the data were processed

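RNA from 16 samples of RAW264.7 cells was measured on Affymetrix whole-transcript arrays, with 100 ng of total RNA each and an RNA integrity number above 8, per the labels' protocols. The authors deposited log2 values, 1 per probe set, which RMA made, per the submitters' processing notes. RMA's version, the annotation and any filter are not given in the sources used here. Of 35556 probe sets, 21218 named 1 gene, 1881 several and 12457 were not in the array's gene table; the brightest per gene was used (1386 genes had several), which left 18820 genes, 18790 of them matched to RefSeq by identifier. For the tests, 4 group means were fitted by lmFit and eBayes (limma 3.58.1, R 4.3.3, two-sided, 12 residual degrees of freedom) in 5 comparisons, and the procedure was tested on simulated data. There, log2 changes of 0.5 were recovered in 71% for LPS+DHA5HT against LPS, 48% for the interaction and 82% to 83% for the others. Changes of 1 were recovered in 93% to 100%. False calls made up 2.84% to 8.12% of the calls. Named genes were the 10 markers, up to 3 genes per pathway list with the smallest p for LPS against control and up to 2 for LPS+DHA5HT against LPS, and the 3 genes most like each of 3 markers. Other pathway genes were named after their values were seen. The markers, lists and tests were chosen with earlier results of these data known. No 2 arrays held identical values. Replicate numbers come from the titles. Deviations of same-numbered arrays from their group means correlated at 0.116 to 0.205 between LPS+DHA5HT and LPS. Between DHA5HT and control they correlated at 0.131 to 0.183. By a rule that every pair exceed 0.1, the numbers were read as a hint of pairing in these 2 comparisons. The correlation was 0.0995 to 0.131 between LPS and control, just short of that rule. It was 0.0699 to 0.232 between LPS+DHA5HT and DHA5HT, and in neither was pairing read. The main tests had no replicate block. The block, an alternative, was fitted over all 16 arrays, including groups not read as paired. Alternatives were the replicate block, an intensity trend, a filter on dim genes, quantile normalization, centring, mean or all probe sets, array weights, the compared arrays alone, a threshold of 0.01 and leaving out each array. Leaving out LPS+DHA5HT arrays 1 and 4 together was chosen after seeing the data. Figures used matplotlib 3.10.9 in Python 3.11.15.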

Additional observations from a re-analysis of the deposited data

Results flagged for a closer look

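In 3 of 40 sets of 4 arrays tested, 1 array lay far from the others of its group, and chance gives about 1 such set in 20. Car2 read 9.02 in DHA5HT array 4, with 8.72 to 8.77 in the other DHA5HT arrays. Car2 also read 9.27 in control array 4, with 8.86 to 8.93 in the other control arrays. Acp5 read 4.09 in control array 2, with 3.44 to 3.51 in the other control arrays.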

How the results depend on the processing

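Nfatc1, Dcstamp and Car2 were called lower in all 17 alternatives of LPS against control and all 18 of LPS+DHA5HT against DHA5HT. Called markers without 1 array numbered 3 to 4 and 3 to 5 there, and called genes 4844 to 5081 and 4741 to 5003. In LPS+DHA5HT against LPS, 0 markers were called without any 1 array, and 1 (Car2) with the replicate block, with the intensity trend (adjusted p = 0.0292 in limma) and with the brighter genes only (adjusted p = 0.0275 in limma). The 337 genes called there became 647 with the replicate block, 557 with the brighter genes, 139 with all probe sets, 86 with the compared arrays alone, 81 at a threshold of 0.01, 41 without LPS+DHA5HT arrays 1 and 4, and 143 to 289 without 1 array. The replicate block gave 179 genes for DHA5HT against control, where 113 were called (83 to 116 without 1 array), and 96 for the interaction, where 62 were called. The interaction had 28 with all probe sets, 28 at 0.01, 36 without LPS+DHA5HT arrays 1 and 4 and 34 to 62 without 1 array. In LPS against control and LPS+DHA5HT against DHA5HT, where 1 pair each fell short of the rule for pairing, the block left the marker counts at 3 and 4. Each array's own number was its best partner in all 4 comparisons, except for LPS+DHA5HT array 4, a hint of pairing from the data and not from the design. In LPS+DHA5HT against DHA5HT, Tnfrsf11a also passed with the brighter genes (adjusted p = 0.0319 in limma) and Itgb3 without LPS+DHA5HT arrays 1 and 4 (−0.32, adjusted p = 0.0347 in limma). Itgb1, called lower by 0.18 with LPS, was at −0.06 (adjusted p = 0.419 in limma) with the mean of its probe sets, and Mitf, called higher by 0.34, at 0.15 (adjusted p = 0.316 in limma).

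Of the log2 changes, 33 turned direction, none of them called on either side, and the cause was not tested. Quantile normalization gave 0.0088 for Ocstamp in LPS against control, 0.0115 for Atp6v0d2 in LPS+DHA5HT against LPS and −0.0032 for Ocstamp in DHA5HT against control. Centring gave 0.0063 for Atp6v0d2 and −0.0060 for Ocstamp in those last 2 comparisons, and array weights 0.0072 for Acp5 and −0.018 for Ocstamp. Without LPS+DHA5HT arrays 1 and 4, LPS+DHA5HT against LPS had 0.0884 for Acp5, 0.0065 for Atp6v0d2 and −0.087 for Itgb3, and the interaction had −7e-04 for Oscar. Leaving out 1 array gave a range of −0.0949 to 0.102 for Ctsk and −0.0926 to 0.062 for Itgb3 in LPS against control. In LPS+DHA5HT against LPS the range was −0.142 to 0.0533 for Acp5, −0.0349 to 0.0244 for Atp6v0d2, −0.122 to 0.0747 for Ctsk, −0.027 to 0.0566 for Itgb3 and −0.0262 to 0.0826 for Nfatc1. It was −0.101 to 0.0667 for Dcstamp and −0.0466 to 0.051 for Ocstamp in DHA5HT against control, and −0.0662 to 0.149 for Oscar in the interaction. For the 6 markers within or below the range of genes that the cells should lack, the low signal limits what their changes can show.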

Other observations

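Dcstamp read higher in arrays numbered 1 and 3 than in those numbered 2 and 4 within every group. The values were 6.92 and 6.77 against 6.49 and 6.61 in LPS+DHA5HT arrays, 7.01 and 7.02 against 6.80 and 6.82 in LPS arrays, 8.22 and 8.22 against 7.72 and 8.00 in DHA5HT arrays, and 8.12 and 8.12 against 8.04 and 8.04 in control arrays. Car2 read highest in the array numbered 4 of the LPS (8.67), DHA5HT (9.02) and control groups (9.27), and lowest in that of the LPS+DHA5HT group (8.06). These patterns were noticed after the values were seen and were not tested.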
